A study of Mus musculus with 6 samples.

Results

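The transcripts described here belong to 10 genes of water and ion transport in the colon epithelium, namely *Aqp8*, *Aqp4*, *Slc26a3*, *Slc9a3*, *Scnn1a*, *Car1*, *Car2*, *Car4*, *Cftr* and *Slc12a2*. Of these, *Car1*, *Car2* and *Car4* encode enzymes that supply protons and bicarbonate, not transporters. All 10 are called transport genes below. They were found by gene symbol among the 17778 genes of the deposited table, and all 10 were present. The 10 genes were selected on values of these same OP and OR mice that were already known, so their difference between the groups is given as a description and without a test. Colon RNA was sequenced from 3 obesity-prone (OP) and 3 obesity-resistant (OR) mice, 1 library per mouse. All 6 were male wild-type C57BL/6J mice, 21 weeks old, that had eaten a high-fat diet (60% fat) for 16 weeks. OP and OR mice had been given the same diet and were separated by their weight gain on it, with OP mice from the upper and OR mice from the lower end. Colon RNA of mice on a normal diet was not analysed here, and the part of the colon that was taken from each mouse is not given.

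The colon recovers water and salt from the gut content. Surface colonocytes take up sodium and chloride together through a sodium/proton exchanger (*Slc9a3*) and a chloride/bicarbonate exchanger (*Slc26a3*), and carbonic anhydrases supply the protons and bicarbonate that are exchanged. The epithelial sodium channel, of which *Scnn1a* encodes the alpha subunit, takes up sodium under the control of aldosterone. Aquaporins let water follow. Secretion runs the other way, as *Slc12a2* loads chloride into the cell from the blood side and *Cftr* releases it into the gut. Several of these transporters are known to be used to different degrees along the length of the colon and along the crypt.

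Expression was given as FPKM, fragments scaled by transcript length and by the total mapped, so that levels can be set side by side between genes. FPKM values summed to between 585350 and 600028 per mouse. Read totals are not contained in FPKM, so depth and counting error are unknown. The OP and OR mice were set against each other with limma-trend, fitted to log2(FPKM + 1) of 13520 genes that reached 0.5 FPKM in 3 or more mice, and all 10 transport genes passed this filter. Each log2 fold change below is OP/OR on this scale, where genes with low values appear to differ less than they do.

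One library stood apart in genes of position along the gut. *Hoxb13*, a homeobox gene of the most distal gut, had an FPKM of 46.9 in OP mouse 2 and of at most 1.29 in the other 5 mice. *Hoxa13* was 29.5 in OP mouse 2 and at most 3.58 elsewhere, and *Insl5*, a hormone of distal enteroendocrine cells, was 61.5 and at most 4.5. Of the 6 distal colon genes in the table, 4 had their highest value in OP mouse 2. Among these 4, *Cldn8* stood out less, at 27.7 in OP mouse 2 and 23.8 in OR mouse 3. The 2 genes that were not highest there, *Hoxd13* and *Hoxd12*, did not exceed 0.16 in any mouse. Of the 8 small intestine genes, 7 had their lowest value in OP mouse 2, of which 2 were tied, *Apoa4* with OR mouse 3 and *Lct* with OP mouse 1. Among them, *Fabp6*, a bile acid binding protein of the ileum, was 1.03 in OP mouse 2 and between 7 and 74.2 in the other mice, and *Slc10a2*, the bile acid transporter of the ileum, was 1.03 in OP mouse 2 and between 37.0 and 88.8 in the other mice. *Sis*, of the same list, was 0.08 in OP mouse 2 and between 0.4 and 10.06 in the other mice. The lactase gene *Lct*, which marks the small intestine, stayed at or below 0.05 in all 6 mice. *Slc5a1*, the gene of the list that was not lowest in OP mouse 2, was 47.1 there and between 25.6 and 61.5 in the others. The other 5 mice also differed among themselves. *Fabp6* was 7 and 11.2 in OP mouse 1 and OR mouse 2. It was 35.1, 74.2 and 45.9 in OP mouse 3, OR mouse 1 and OR mouse 3. *Slc10a2*, *Sis* and *Slc5a1* split the same 5 mice in the same way. *Apoa4*, *Apoc3* and *Anpep* did not. Because of the values of OP mouse 2, the differences of the 10 genes are given with and without this mouse. Leaving it out does not remove the split among the other 5 mice.

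**Figure D1:**
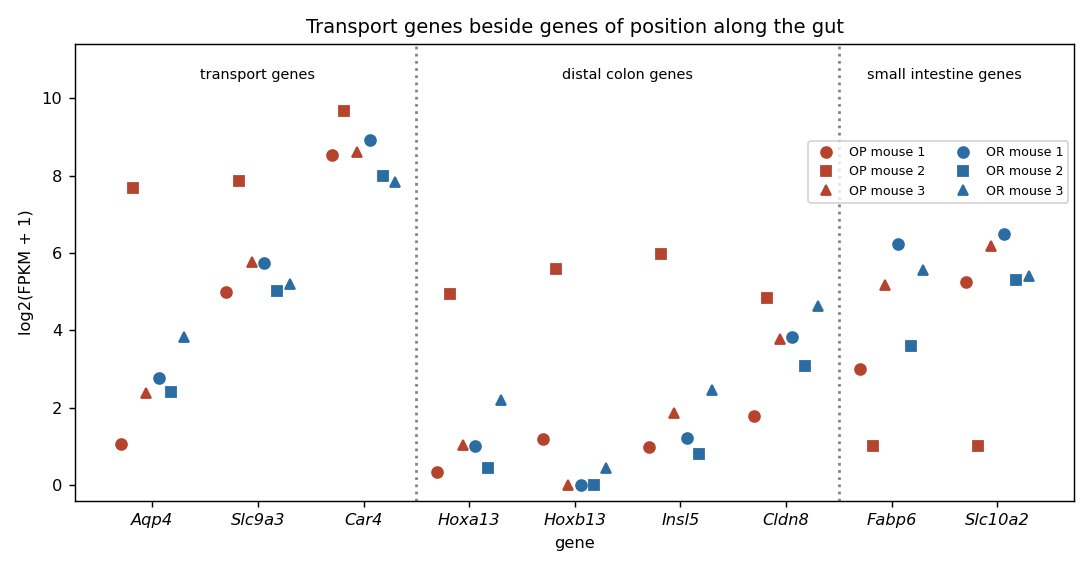
Level of 3 of the transport genes, 4 distal colon genes and 2 small intestine genes as log2(FPKM + 1), with 1 point per mouse (red, OP; blue, OR; circle, square and triangle, mice 1, 2 and 3). The red square of OP mouse 2 is the highest of the 6 for *Aqp4*, *Slc9a3*, *Car4*, *Hoxa13*, *Hoxb13*, *Insl5* and *Cldn8* and the lowest for *Fabp6* and *Slc10a2*.

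*Aqp8* encodes a water channel of absorptive colonocytes. OP mice 1, 2 and 3 showed 1060.0, 1084 and 39.4 FPKM, and OR mice 1, 2 and 3 showed 10.1, 358 and 25.3 FPKM. Values are given in this order of mice throughout. High and low mice thus occurred in both groups, and the groups overlapped. The highest value was 108 times the lowest over the 6 mice, 27.5 times within OP and 35.5 times within OR. The OP mean was 728 ± 596 (SD, n = 3), against an OR mean of 131 ± 197 (SD, n = 3), so the SD was close to the OP mean and above the OR mean. In whole tissue, fewer cells of a type and less RNA per cell cannot be told apart. This gave a log2 fold change of 2.93 (standard error 1.61), which remained above 0 with each mouse left out, between 1.89 and 4.51, and was 2.14 without OP mouse 2.

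*Aqp4* encodes a water channel that is best known from brain and is also made in colon epithelium. The OP mice showed 1.1, 204 and 4.22 FPKM and the OR mice showed 5.79, 4.35 and 13.2 FPKM. OP mouse 2 had 15.5 times the next highest value, while OP mouse 1 had the lowest. The OP mean was 69.7 ± 116 (SD, n = 3), against an OR mean of 7.77 ± 4.73 (SD, n = 3). The log2 fold change was 0.71 (standard error 1.53) with all mice and -1.28 (standard error 0.53) without OP mouse 2. A single mouse therefore set both the size and the direction of the difference. The FPKM of *Aqp8* was 964 times that of *Aqp4* in OP mouse 1, 5.32 times in OP mouse 2 and 1.74 times in OR mouse 1, so the water channel that was more abundant was *Aqp8* in all 6 mice, by very different margins.

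**Figure D2:**
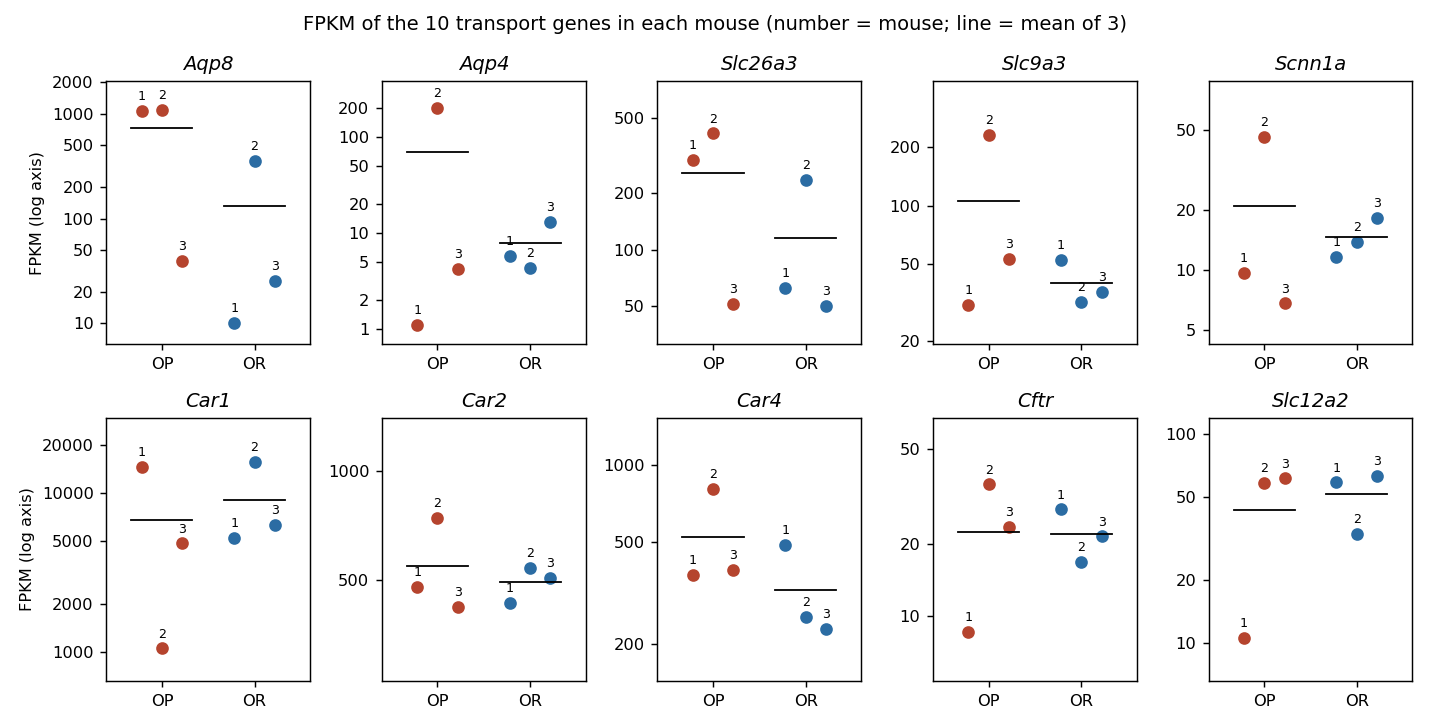
FPKM of the 10 transport genes in OP and OR mice, 1 panel per gene with a log axis of its own. Points are single mice with their number and lines are the means of 3 mice. OP mouse 2 is the highest of the 6 in 8 panels, and the OP and OR points overlap in all 10 panels.

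*Slc26a3* encodes the apical chloride/bicarbonate exchanger, loss of which causes chloride-losing diarrhoea. It measured 301, 415 and 51.6 FPKM across OP mice and 62.8, 235 and 50.3 FPKM across OR mice. The 3 highest values belonged to OP mouse 1, OP mouse 2 and OR mouse 2, the same mice that were highest for *Aqp8*. The OP mean was 256 ± 186 (SD, n = 3), against an OR mean of 116 ± 103 (SD, n = 3). OP exceeded OR by a log2 fold change of 1.03 (standard error 0.86), between 0.46 without OP mouse 2 and 1.95 without OP mouse 3.

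*Slc9a3* encodes NHE3, the sodium/proton exchanger that works beside *Slc26a3*. The OP mice showed 30.8, 231 and 53.3 FPKM and the OR mice showed 52.4, 31.7 and 35.8 FPKM. OP mouse 2 had 4.34 times the next highest value, and the other 5 mice lay close together. A log2 fold change of 0.88 (standard error 0.66) resulted, which became 0.05 (standard error 0.30) without OP mouse 2. The exchangers, which act as a pair in salt uptake, did not keep a fixed ratio. *Slc26a3* was at 9.77 and 7.41 times the FPKM of *Slc9a3* in OP mouse 1 and OR mouse 2, and between 0.968 and 1.80 times in the other 4 mice.

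The promoters of 5 of the 10 genes (*Aqp8*, *Car4*, *Cftr*, *Slc26a3* and *Slc9a3*) were found in the RefSeq table of build GRCm38.p6, as windows of 250 bases before and 50 bases after the start. Shown are those of *Aqp8* and *Slc26a3*, which were highest in the same 3 mice, and of *Slc9a3*, which was not. All lie on the plus strand. Capitals mark the TATA box TATAAA.

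Aqp8 promoter, chr7:123462044-123462343: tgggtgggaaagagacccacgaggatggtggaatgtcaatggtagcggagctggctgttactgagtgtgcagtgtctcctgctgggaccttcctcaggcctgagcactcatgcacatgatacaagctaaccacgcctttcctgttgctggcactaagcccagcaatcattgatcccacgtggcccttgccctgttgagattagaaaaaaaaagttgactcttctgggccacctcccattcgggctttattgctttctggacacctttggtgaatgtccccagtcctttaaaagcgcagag
Slc26a3 promoter, chr12:31437969-31438268: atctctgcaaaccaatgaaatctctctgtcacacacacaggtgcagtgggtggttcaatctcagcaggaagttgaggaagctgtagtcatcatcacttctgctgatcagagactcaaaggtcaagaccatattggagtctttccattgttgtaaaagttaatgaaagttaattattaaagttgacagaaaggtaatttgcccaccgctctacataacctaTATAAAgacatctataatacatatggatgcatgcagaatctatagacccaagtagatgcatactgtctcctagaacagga
Slc9a3 promoter, chr13:74121163-74121462: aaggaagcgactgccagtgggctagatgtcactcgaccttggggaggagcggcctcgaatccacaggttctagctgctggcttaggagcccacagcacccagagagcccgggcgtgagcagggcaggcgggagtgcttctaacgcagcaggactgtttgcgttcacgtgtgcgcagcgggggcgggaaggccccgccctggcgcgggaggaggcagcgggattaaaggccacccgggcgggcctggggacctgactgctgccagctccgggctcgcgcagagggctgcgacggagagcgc

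On either strand, the CDX motif TTTATG was held by 11.9% of all 32851 promoter windows of the table and the HNF4 motif CAAAGTCC by 1.42%. CDX and HNF4 are transcription factors of gut epithelium, and 0 of the 5 windows held either motif in these letters. Other forms of these motifs were not searched. The letters TATAAA were in 13.6% of all windows and in 2 of the 5, *Slc26a3* at position -30 from the start and *Car4* at position 43, after the start. A window without the letters says nothing about binding of the factor.

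*Scnn1a* encodes the alpha subunit of the epithelial sodium channel. It measured 9.7, 46.4 and 6.83 FPKM across OP mice and 11.7, 13.8 and 18.2 FPKM across OR mice. OP mouse 2 was highest and the other OP mice were below all OR mice. The log2 fold change of 0.04 (standard error 0.62) with all mice thus averaged unlike values, and it was -0.75 (standard error 0.25) without OP mouse 2. Of the partner subunits, *Scnn1b* had an FPKM between 0.24 and 2.81, and *Scnn1g* stayed at or below 0.16 in all mice.

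The 3 carbonic anhydrases, which convert carbon dioxide to bicarbonate and protons, differed widely in spread. *Car1*, a cytosolic enzyme of colonocytes, measured 14584, 1054 and 4836 FPKM across OP mice and 5255, 15723 and 6339 FPKM across OR mice. It was the most abundant gene of the whole table in OP mouse 1, OR mouse 2 and OR mouse 3 and ranked 89th in OP mouse 2. It alone took from 0.180% of the summed FPKM in OP mouse 2 to 2.64% in OR mouse 2. On the log2 scale OP/OR was -0.94 (standard error 0.91) and became 0.06 (standard error 0.64) without OP mouse 2.

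*Car2*, the widely expressed cytosolic enzyme, was the steadiest of the 10 genes. The OP mice showed 477, 740 and 419 FPKM and the OR mice showed 430, 538 and 506 FPKM, a range of 1.77 times over the 6 mice. OP/OR on the log2 scale was 0.11 (standard error 0.23), and it was -0.13 (standard error 0.17) without OP mouse 2.

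*Car4*, which is anchored to the outside of the apical membrane, measured 372, 808 and 390 FPKM across OP mice and 486, 255 and 228 FPKM across OR mice. Its OP mean was 523 ± 247 (SD, n = 3), against an OR mean of 323 ± 142 (SD, n = 3). The 2 lowest values were both in OR mice, but OR mouse 1 lay above 2 of the OP mice. For *Car4* the log2 fold change was 0.68 (standard error 0.38), between 0.32 without OP mouse 2 and 1.02 without OR mouse 1. The ratio of *Car1* to *Car4* transcript varied between the mice. *Car1* was at 39.2, 1.30 and 12.4 times the FPKM of *Car4* in the OP mice and at 10.8, 61.8 and 27.8 times in the OR mice.

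Both genes of chloride secretion were lowest in OP mouse 1. *Cftr*, which encodes the apical chloride channel, measured 8.59, 35.7 and 23.6 FPKM across OP mice and 28.0, 16.9 and 21.6 FPKM across OR mice. For *Cftr* the log2 fold change was -0.15 (standard error 0.46), and it was -0.56 (standard error 0.41) without OP mouse 2. *Slc12a2* encodes NKCC1, the sodium-potassium-chloride cotransporter of the basolateral membrane, and reached 10.56, 58.0 and 61.2 FPKM across OP mice and 58.6, 33.2 and 62.8 FPKM across OR mice. Apart from OP mouse 1 and OR mouse 2, which were also the mice with the most *Car1*, its values lay between 58.0 and 62.8. For *Slc12a2* the log2 fold change was -0.54 (standard error 0.63), and it was -0.92 without OP mouse 2 and 0.26 without OP mouse 1.

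Seen together, 7 of the 10 genes had a log2 fold change above 0 and 3 (*Car1*, *Cftr* and *Slc12a2*) below 0, with a median of 0.40, beside a median of -0.10 over all 13520 genes. In 10 of 10 the values of OP and OR mice overlapped. Complete separation with OP above OR was found in 1.63% of all genes, and with OP below OR in 6.81%. These counts describe the contrast on which the 10 genes were chosen, and nothing is read from them. No log2 fold change was larger than 2 standard errors, and 5 were smaller than 1 standard error. Without OP mouse 2, the median of the 10 was -0.04, 5 genes were above 0 and 5 below, and *Aqp4*, *Scnn1a*, *Car1* and *Car2* had the opposite sign. *Aqp4* and *Scnn1a* then had both remaining OP mice below all OR mice, which made 2 of the 10, beside 15.4% of all genes, and 0 of the 10 had them above, beside 5.81%. OP mouse 2 was left out after its values were seen, and it had the highest level of both genes.

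**Figure D3:**
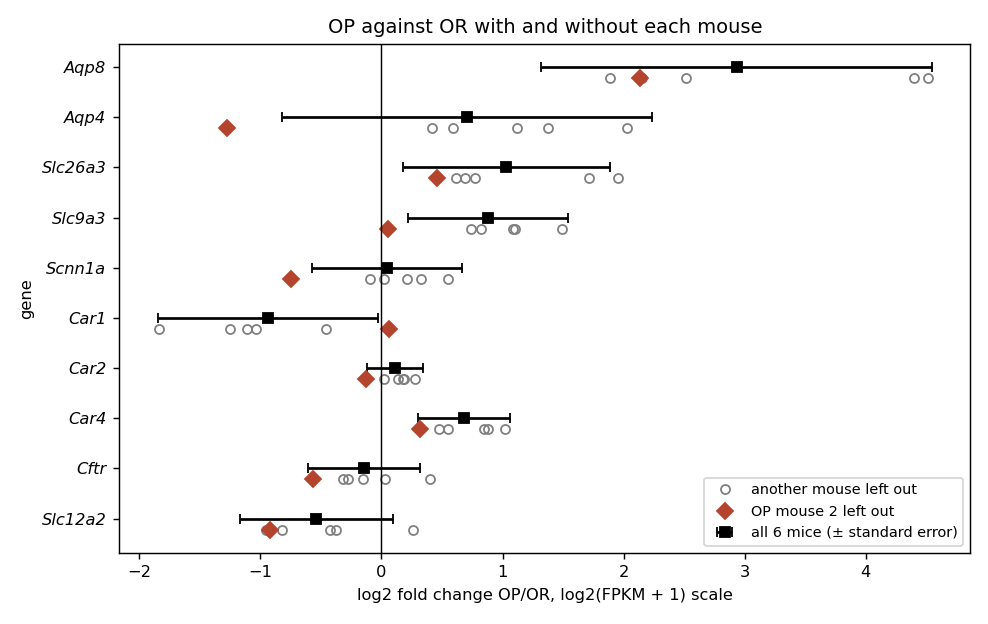
Log2 fold change OP/OR of the 10 transport genes on the log2(FPKM + 1) scale. Squares with bars are the fit over 6 mice with its standard error, open circles the fits with 1 other mouse left out, and red diamonds the fit without OP mouse 2, which crosses 0 for *Aqp4* (-1.28), *Scnn1a* (-0.75), *Car1* (0.06) and *Car2* (-0.13).

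The spread inside the groups was large for genes of this table. The 10 genes were chosen with values of these same mice known, so the shares below are a description and not a test. The SD within groups on the log2(FPKM + 1) scale was 2.67 for *Aqp8*, 2.53 for *Aqp4*, 1.47 for *Car1* and 1.41 for *Slc26a3*, beside a median of 0.25 over all genes tested. For 8 of the 10 genes it lay above the 95th percentile of all genes, with *Car4* at 92.8 and *Car2* at 68.0. A range of at least 5 times over the 6 mice was found for 7 of the 10 and for 8.30% of all genes tested, and a range of at least 10 times for 3 of the 10 and 3.25%. The range was wider in OP than in OR mice for 9 of the 10 genes, with *Aqp8* as the exception. Without OP mouse 2, the OP range was the wider in 6 of the 10, and a range of at least 5 times over 5 mice was found for 4 of the 10 (*Aqp8*, *Aqp4*, *Slc26a3* and *Slc12a2*) and for 5.54% of all genes. The share of all genes with the wider range in OP was not counted. The counts of 9 and 6 are therefore not read as particular to the 10 genes.

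The spread did not have the same pattern in all genes. OP mouse 2 was highest in 8 of the 10 genes and lowest for *Car1*. How many of all genes were highest in this mouse was not counted, so the 8 are not read as particular to the 10. OP mouse 1 was lowest in 4, namely *Aqp4*, *Slc9a3*, *Cftr* and *Slc12a2*, but was among the 2 highest for *Aqp8*, *Slc26a3* and *Car1*. OR mouse 2 was among the 3 highest for these 3 genes. OP mouse 3, OR mouse 1 and OR mouse 3 had the lowest values of *Aqp8* and *Slc26a3*.

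Marker lists were set beside these values. The 15 colon epithelium genes summed to between 12566 and 15556 in OP mice and between 12393 and 14920 in OR mice, a range of 1.26 times over all mice, and none was at 0. Taken relative to their mean in each mouse, the median log2 fold change of the 10 genes was 0.32. Genes of mature surface cells summed to 7054, 4987 and 3856 FPKM in the OP mice and to 3880, 5198 and 3598 in the OR mice. The 3 highest mice in this sum were those with the most *Aqp8* and *Slc26a3*. The same 3 mice were highest for *Krt20*, *Ceacam1*, *Cdhr2* and *Muc3*, but not for *Cdhr5*, *Myo1a* and *Klf4*. *Cdhr5* was lowest in OP mouse 2, at 446 FPKM. Genes of the crypt base and of dividing cells summed to 22.9, 86.1 and 68.7 in the OP mice and to 104, 62.7 and 90.0 in the OR mice. All 9 had their lowest value in OP mouse 1, in which *Aqp4*, *Slc9a3*, *Cftr* and *Slc12a2* were also lowest. For *Slc9a3* the margin was small, at 30.8 FPKM against 31.7 in OR mouse 2. A typical gene was low in this mouse as well. The median ratio of a gene to its mean over the mice was 0.80 in OP mouse 1 and between 0.98 and 1.11 in the others.

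Goblet cell genes summed to 1180, 4940 and 2026 FPKM in the OP mice and to 1771, 5907 and 7022 in the OR mice. All 8 of them had a log2 fold change below 0, with a median of -1.17 that was -1.55 without OP mouse 2. Leaving out 1 mouse turned the sign of 3 of them, *Agr2* (up to 0.18), *Spink4* (up to 0.21) and *Reg4* (up to 0.66). An unadjusted limma p below 0.05 with OP lower was found for 2 of the 8 (*Tff3* and *Zg16*), beside 3.53% of all genes, and the adjusted p by limma was 0.945 for both. The summed level of the 6 distal colon genes was 5.15, 166 and 16.5 across OP mice and 15.7, 8.65 and 32.3 across OR mice. That of the 8 small intestine genes was 78.0, 50.4 and 183 across OP mice and 241, 88.9 and 146 across OR mice. OP mouse 3, OR mouse 1 and OR mouse 3 were highest in this sum, and had the lowest *Aqp8* and *Slc26a3*. Of other cell types, blood endothelium summed to between 8.17 and 14.4 in OP mice and between 16.3 and 28.3 in OR mice, and fibroblast genes to between 81.8 and 142 and between 210 and 371. An unadjusted limma p below 0.05 was reached, with OP lower, by 6 of 6 endothelium, 5 of 7 fibroblast and 3 of 8 leukocyte genes, beside the same 3.53% of all genes, and none of them was at a q-value below 0.2. Smooth muscle genes ranged from 1407 to 2242 in OP and from 1742 to 3222 in OR mice, leukocyte genes from 56.6 to 171 and from 147 to 182, neuron and glia genes from 25.4 to 48.8 and from 22.7 to 49.8, and adipocyte genes from 22.2 to 128 and from 61.4 to 214. The part of position, cell types and depth in the values of the 10 genes was not tested.

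**Figure D4:**
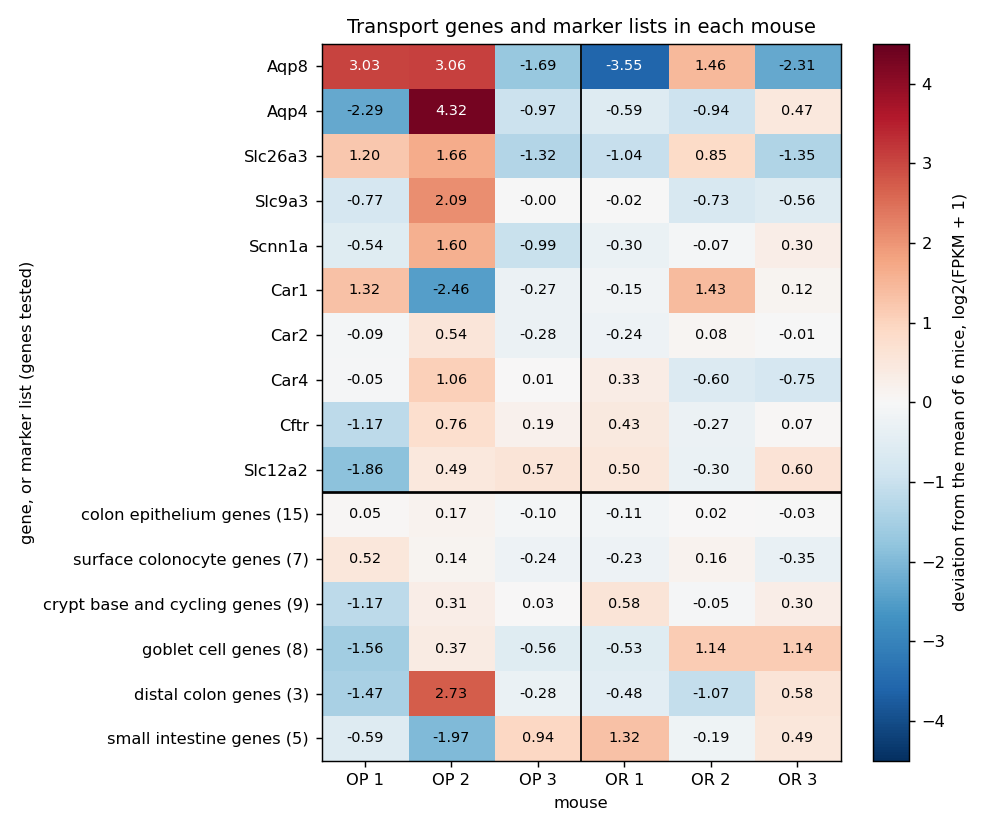
Deviation of each mouse from the mean over 6 mice, on the log2(FPKM + 1) scale, for the 10 transport genes (above the line) and as the mean over the tested genes of 6 marker lists (below the line). Epithelium genes stay between -0.11 and 0.17, while *Aqp4* reaches 4.32 and the distal colon genes 2.73 in OP mouse 2, and *Slc12a2* reaches -1.86 and the crypt genes -1.17 in OP mouse 1.

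Profiles most like those of *Aqp8* and *Aqp4*, the 2 genes with the widest range, were searched among all genes tested, by the root mean square difference of centred log2(FPKM + 1) values over the 6 mice. Closest to *Aqp8* were *Clca4a* (1.15), *Creb3l3* (1.35), *Slc26a3* (1.47) and *Duoxa2* (1.53). *Clca4a* measured 739, 337 and 13.5 FPKM across OP mice and 20.6, 628 and 54.5 FPKM across OR mice. Closest to *Aqp4* were *Hoxa13* (0.61), *Insl5* (0.62), *Nxpe4* (0.68) and *B3gnt7* (0.71). *Nxpe4* was 35.8 in OP mouse 2 and at most 1.51 in the other mice. With 6 mice and 13520 genes such likeness describes these libraries only.

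Partner genes of the same pathways, outside the 10, were compared between the groups as well. Of 55 such genes in the table, 44 were tested. At a q-value below 0.2 and an OP/OR fold of either 1.2 and above or 0.83 and below, 0 of them were called, where 0.0222% of all genes were (lowest adjusted p = 0.945, limma-trend with Benjamini-Hochberg adjustment). At an unadjusted p below 0.05 the limma-trend count was also 0 of 44, beside 4.03% of all genes, and it was 0 to 5 under other settings of limma. The median log2 fold change of the 44 was -0.05. OP mice were all above OR mice in 1 of the 44 and all below in 1, beside 1.63% and 6.81% of all genes. These were the beta subunits of the sodium/potassium pump described next.

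The sodium/potassium pump drives all the transport above from the basolateral membrane. Its beta subunit *Atp1b1* reached 611, 708 and 705 FPKM across OP mice and 604, 500 and 545 FPKM across OR mice. The lowest OP mouse was just above the highest OR mouse, with a log2 fold change of 0.30 (standard error 0.14, adjusted p = 0.945 by limma). The other beta subunit, *Atp1b3*, reached 34.4, 37.5 and 37.0 FPKM across OP mice and 41.5, 41.0 and 48.1 FPKM across OR mice. It differed by -0.25 on the log2 scale (standard error 0.12, adjusted p = 0.945 by limma), so the beta subunits lay in opposite directions, and neither passed the threshold. *Fxyd3*, a regulator of the pump, differed by a log2 fold change of -0.66 (standard error 0.44). Of the 5 pump genes tested, 3 lay above and 2 below 0, and the median of the list, which was above 0 over 6 mice, was -0.28 without OP mouse 2 and -0.13 with a pseudocount of 0.1.

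Of 10 tested exchangers and their scaffolds, 7 lay above and 3 below 0, with a median of 0.06 that was 0.02 without OP mouse 2, -0.01 with sample weights and -0.08 without OP mouse 3. *Slc9a2*, which encodes the second apical sodium/proton exchanger, measured 229, 154 and 151 FPKM across OP mice and 135, 153 and 97.1 FPKM across OR mice, and was thus above *Slc9a3* in 5 of 6 mice. For *Slc9a2* the log2 fold change was 0.47 (standard error 0.23). The scaffold *Slc9a3r1*, which holds *Slc9a3* at the membrane, differed by a log2 fold change of 0.42 (standard error 0.26), and the basolateral anion exchanger *Slc4a2* had 0.06 (standard error 0.27). *Slc26a2*, a sulfate transporter, had 0.13 (standard error 0.20).

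The sodium channel and aldosterone list had 3 of 7 tested genes above 0 and a median of -0.04, which was -0.20 without OP mouse 2 and 0.10 after median-of-ratios scaling. The mineralocorticoid receptor *Nr3c2* was steady, with 26.2 ± 3.68 FPKM (SD, n = 3) in OP against 22.9 ± 1.16 (SD, n = 3) in OR. Its target *Sgk1* had 245 ± 43.5 (SD, n = 3) and 205 ± 48.6 (SD, n = 3). *Hsd11b2*, which shields the receptor from glucocorticoids, differed by a log2 fold change of -0.04 (standard error 0.36), and *Tsc22d3*, a steroid target, had -0.13 (standard error 0.17).

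Among 12 tested genes of chloride and fluid secretion, 5 lay above and 7 below 0, with a median of -0.31 that was -0.56 without OP mouse 2. Guanylin (*Guca2a*), the peptide that sets off secretion, was abundant and steady at 3806 ± 812 FPKM (SD, n = 3) in OP against 3301 ± 333 (SD, n = 3) in OR, and its receptor *Gucy2c* differed by a log2 fold change of 0.01 (standard error 0.15). *Kcne3*, a subunit of the basolateral potassium channel, had -0.29 (standard error 0.31). *Clca1*, a secreted goblet cell protein, had -0.94 (standard error 0.56). Without OP mouse 2 they had -0.61 and -1.39, both then at an unadjusted limma p below 0.05. In that fit 615 of all 13405 genes tested were lower in OP at this p.

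Other aquaporins were few, and 2 of the 6 in the table were tested. *Aqp1*, a water channel best known from endothelium and kidney, measured 8.15, 35.1 and 56.95 FPKM across OP mice and 70.8, 32.4 and 79.4 FPKM across OR mice, with a log2 fold change of -1.11 (standard error 0.67). *Aqp11* had -0.32 (standard error 0.33), *Aqp3* was at or below 0.62 and *Aqp7* at or below 0.75 in every mouse. Of 8 other carbonic anhydrases tested, 3 lay above and 5 below 0, with a median of -0.07, which was -0.14 without OP mouse 2 and 0.07 after median-of-ratios scaling. *Car12* and *Car9*, both membrane enzymes, had log2 fold changes of -0.09 (standard error 0.36) and 0.02 (standard error 0.16), and cytosolic *Car13* had -0.05 (standard error 0.22). *Car3*, an enzyme of muscle and fat, measured 16.5, 0.25 and 24.4 FPKM across OP mice and 55.5, 8.26 and 37.0 FPKM across OR mice, and adipocyte genes were lowest in the same OP mouse 2.

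**Figure D5:**
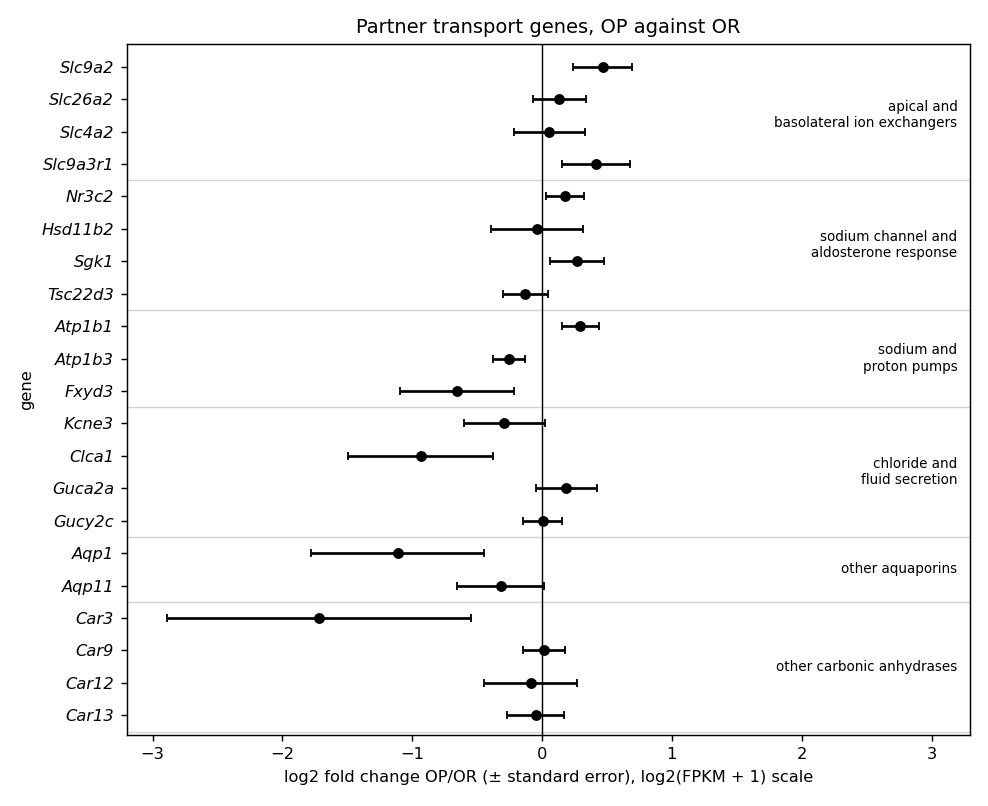
Log2 fold change OP/OR with its standard error on the log2(FPKM + 1) scale for the partner genes described, grouped by list. *Atp1b1* (0.30) and *Atp1b3* (-0.25) have short bars on opposite sides of 0, and *Car3* (-1.72) has the widest bar, with a standard error of 1.17.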

How the data were processed

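The authors deposited 1 table with 1 FPKM column per mouse, rounded to 2 decimals. According to the methods, strand-specific mRNA libraries were cleaned (SOAPnuke), mapped to a gene set (Bowtie2) and quantified (RSEM). Versions differ between labels and methods, and the submitters' processing notes also name HISAT2 2.0.4 and GRCm39. The authors' test, DESeq2, needs counts and was not run. Groups and mouse numbers were taken from the labels. From the FPKM, log2(FPKM + 1) was computed for all genes reaching 0.5 in 3 or more mice. Limma-trend (version 3.58.1 in R 4.3.3) was fitted to OP and OR, and p-values were adjusted after Benjamini and Hochberg. The fit was tested on simulated data. The 10 genes, the lists and the tests were chosen with earlier results of these data known. Named are the 10 genes, the 4 most abundant genes of each partner list, genes with an unadjusted p below 0.05 or no overlap, the highest, lowest and defining genes of marker lists and the 4 profiles closest to 2 genes; others (*Scnn1b*, *Scnn1g*, *Fabp6*) were chosen after their values were seen. Some genes that this rule names are not reported here. Partner genes absent from the table were not analysed here. Alternatives were median-of-ratios scaling, equal totals, limma without trend, a pseudocount of 0.1, other filters, a block for the replicate number, sample weights, leaving out each mouse and levels relative to epithelium genes. Counts over the 10 genes without OP mouse 2 were added after seeing the data. Promoters came from RefSeq (GRCm38.p6), another build than the authors', and no other coordinates were used.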

Additional observations from a re-analysis of the deposited data

How the results depend on the processing

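Depth is unknown, and 3 mice against 3 with this spread give wide errors. At a q-value below 0.2, 3 of all genes were called lower in OP. This became 0 under each of median-of-ratios scaling, equal totals, a pseudocount of 0.1, testing all genes above 0 in 1 mouse and a minimum FPKM of 1 in all 6 mice, 5 with sample weights, and 0 to 1 with each mouse left out. The cause was not tested. No gene (0) was called higher in any of these fits, while 68 were higher at an unadjusted limma p below 0.05. With the replicate block 0 genes were lower. Calls at that unadjusted p split into 68 higher and 477 lower, against 154 and 421 after median-of-ratios scaling, which moved the all-gene median from -0.10 to 0.01 and left the signs of the 10 genes as they were.

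Of the 44 partner genes, 0 had an unadjusted p below 0.05. The count was 1 with median-of-ratios scaling (*Atp1b1*), 2 with sample weights (*Atp1b1* and *Car3*), 5 with the replicate block (*Clca1*, *Fxyd3*, *Slc9a2*, *Car8* and *Car3*), and from 0 to 4 with each mouse left out. It was 2 without OP mouse 2 (*Clca1* and *Kcne3*), 4 without OP mouse 3 (*Slc4a4*, *Prkg2*, *Car8* and *Aqp1*), 3 without OR mouse 1 (*Clca1*, *Best2* and *Scnn1b*), 1 without OP mouse 1 (*Atp1b1*) and 1 without OR mouse 2 (*Slc9a2*). The genes were named after their values were seen. Over all 13405 genes tested without OP mouse 2, 172 were higher and 615 lower at an unadjusted limma p below 0.05. These were 178 and 1094 of 13340 without OP mouse 3, and 52 and 275 of 13316 without OR mouse 1. They were 97 and 310 of 13453 without OP mouse 1, and 125 and 512 of 13394 without OR mouse 2. Sample weights gave 146 and 656, and the replicate block 66 and 409, of 13520 each. Mice that share a number are separate animals. Deviations of the 3 same-numbered pairs correlated between -0.16 and 0.07 across genes, against -0.46 to 0.54 for the 6 other pairs. The labels name no pairing by number. Whether same-numbered mice shared a step of handling cannot be settled with 3 pairs.

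The median log2 fold change of the 10 transport genes was 0.40, from 0.30 to 0.70 with each mouse left out other than OP mouse 2, and -0.04 without OP mouse 2. Median-of-ratios scaling gave 0.53, a pseudocount of 0.1 gave 0.32 and sample weights gave 0.72, under which *Cftr* had the opposite sign. The sign also changed for *Cftr* (0.40) and *Slc12a2* (0.26) without OP mouse 1, for *Scnn1a* (-0.09) and *Cftr* (0.03) without OR mouse 1, and for *Scnn1a* (-0.04) relative to the epithelium genes.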
